A study of Mus musculus with 15 samples.

Results

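Interferon response genes are the genes that cells switch on when interferon binds its receptors, and 36 of them were followed here in hematopoietic stem cells (HSCs) of mouse bone marrow, out of 20696 genes in the deposited table. The members were matched by gene symbol, and all 36 were found. They encode nucleic acid sensors, transcription factors, antiviral effectors, GTPases and secreted proteins. Of the 36, 34 reached a mean of at least 1 FPKM (fragments per kilobase of transcript, scaled to sequencing depth) over all libraries and were tested. Mx1, an antiviral GTPase, and Ifih1, an RNA sensor, stayed under that level and were not tested.

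Bulk RNA sequencing was done on HSCs purified by flow cytometry, in 3 groups of 5 libraries. The first group is labelled aged Thbs1 knockout and came from mice of 18 months. The aged controls were also 18 months old, and the young controls were 3 months old. Thbs1 encodes thrombospondin 1, a secreted matrix glycoprotein. The sources used here name no strain and no knockout allele. They also do not state that the 5 libraries of a group came from separate animals, and a p-value therefore measures the spread between libraries, which may be technical in part.

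Type I interferons signal through the receptor subunits Ifnar1 and Ifnar2 and the kinases Jak1 and Tyk2. The signal reaches a complex that holds Stat2 and Irf9 and binds a promoter element called ISRE. Interferon gamma signals through Ifngr1 and Ifngr2 and acts on a second element called GAS. In mice, interferon is known to bring dormant HSCs into the cell cycle, and stem cells are known to keep some interferon response genes on without infection.

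Several features of the libraries bear on every result. Thbs1 itself did not follow the label. It stood at 2.53, 1.69, 17.89, 12.69 and 17.25 FPKM in labelled knockout libraries 1 to 5, against 0.20, 0.01, 0.62, 8.75 and 4.90 FPKM in aged controls 1 to 5 (log2 difference 1.73, SE 0.71; two-sided tests, limma adjusted p = 0.302 and exact permutation p = 0.111). Young controls 1 to 5 stood at 0.76, 0.70, 13.38, 2.42 and 3.95 FPKM. Every direction given for the labelled knockout libraries is that of libraries with this label, not of a measured loss of Thbs1. The table names each column by a title and by a library name. For 10 of 15 columns the sample descriptions tie that library name to a title in another group, and columns were grouped by title. A letter in each library name (A, B or C) followed the title groups in every column. Labelled knockout libraries 2 and 5 stood apart. Genes with at most 1200 nucleotides of exons held 54.9% and 47.4% of the summed FPKM in these libraries, against 27.1% to 40.7% in the other 13. Each library held between 16647684 and 28622341 reads in genes, worked out from the steps in its rounded values with the smallest step taken as 1 read, so a library's true number could be a whole multiple of this. All 12 HSC markers had a mean of at least 1 FPKM, among them Kit, Procr, Slamf1 and Hlf. In bulk samples, fewer cells of a type and less RNA per cell cannot be told apart.

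The levels of the members spanned 3 orders of magnitude on the FPKM scale, which is a level per length. Ifitm3 and Ifitm1, which encode membrane proteins that block virus entry, were the highest, with means of 1533 and 882 FPKM over 15 libraries. Lgals3bp, which encodes a secreted glycoprotein that binds galectins, followed with 215 FPKM. Next in order came Bst2 (90.8 FPKM), Ifi27 (72.9 FPKM), Igtp (58.8 FPKM) and the transcription factor gene Irf1 (46.7 FPKM). At the low end were Oas2 (1.80 FPKM), Gbp7 (1.36 FPKM), Cxcl10 (1.34 FPKM), Ifih1 (0.862 FPKM) and Mx1 (0.685 FPKM). Mx1 rested on 4 to 141 recovered reads per library, and Ifih1 on 80 to 391.

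**Figure D1:**
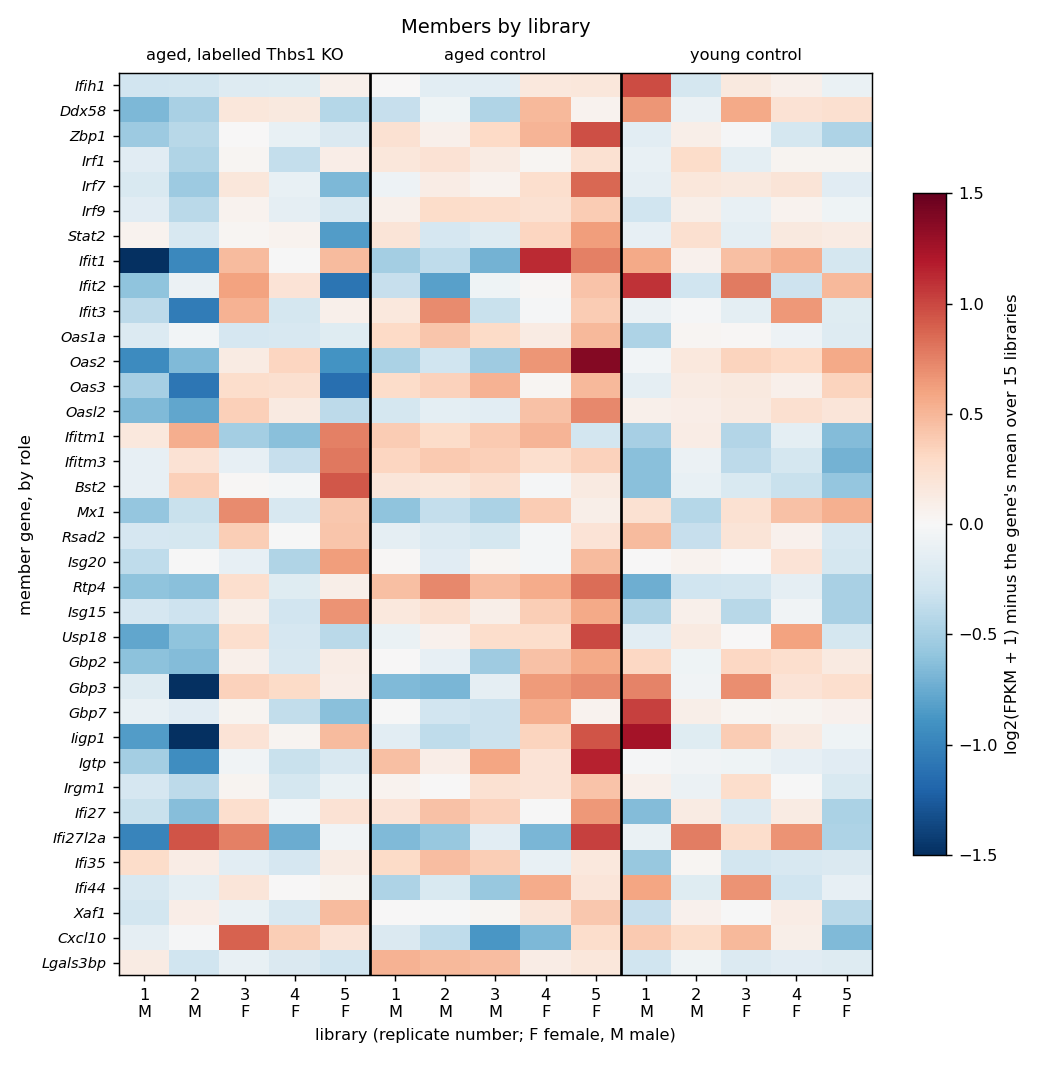
Level of each of the 36 members (rows, by role) in each of 15 libraries (columns), as log2(FPKM + 1) minus the gene's mean over all libraries; colours end at differences of -1.5 and 1.5. Aged control 5 is red in most rows, and labelled knockout libraries 1 and 2 are blue in most rows, apart from short genes such as Ifitm1 and Bst2 in library 2.

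Promoters of the members were read from RefSeq on GRCm38.p6, as windows from 250 bases before to 50 bases after each start site. The table held 28 of the 36. Usp18, Zbp1, Rtp4, Ifi27, Iigp1, Mx1, Ifi27l2a and Oas2 had no entry. An ISRE core, spelled GAAANNGAAA and sought on both strands, lay in the windows of 17 of 28 members (60.7%), against 3.99% of 27025 genes and 3.77% of 8462 tested genes. A GAS core, spelled TTCNNNGAA, lay in 9 members (32.1%), against 9.55% of all genes. A match is a description of letters and not a site.

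The following 4 promoters belong to members that passed the test in a comparison of groups. Each runs 5′ to 3′ on the gene's strand from 120 bases before to 30 bases after the start site, and capitals mark ISRE cores. Igtp lies at chr11:58199436-58199585 on the plus strand, Oas1a at chr5:120907496-120907645 on the minus strand, Ifitm3 at chr7:141010715-141010864 on the minus strand and Lgals3bp at chr11:118401930-118402079 on the minus strand.
Igtp: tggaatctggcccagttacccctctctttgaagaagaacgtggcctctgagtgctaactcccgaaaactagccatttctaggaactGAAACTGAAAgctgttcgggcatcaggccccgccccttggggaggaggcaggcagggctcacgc
Oas1a: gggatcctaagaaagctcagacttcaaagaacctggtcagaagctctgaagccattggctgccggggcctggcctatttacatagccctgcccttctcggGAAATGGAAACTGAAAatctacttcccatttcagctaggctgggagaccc
Ifitm3: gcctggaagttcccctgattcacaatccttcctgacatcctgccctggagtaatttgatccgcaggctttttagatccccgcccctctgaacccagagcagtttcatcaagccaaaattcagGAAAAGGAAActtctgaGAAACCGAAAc
Lgals3bp: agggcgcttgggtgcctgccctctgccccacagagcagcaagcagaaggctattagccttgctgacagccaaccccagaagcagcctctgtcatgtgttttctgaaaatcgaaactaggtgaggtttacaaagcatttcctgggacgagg

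The Igtp window had an ISRE core that began 34 bases before the start site and a GAS core that began 45 bases before it. In Oas1a, overlapping ISRE cores began 20 and 14 bases before the start site, and a GAS core began 98 bases before it. The Ifitm3 cores lay in the transcribed part, with ISRE cores from the bases at 3 and 20 and a GAS core from the base at 14 that overlaps the second. Neither motif was found in the Lgals3bp window.

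Aged control HSCs were compared with young control HSCs to see how the interferon response genes change with age. Of 34 tested members, 4 rose and none fell (limma, Benjamini-Hochberg adjusted p under 0.05 over 11345 genes). That is 11.8% of members, against 4.42% of all tested genes called in either direction and 3.18% called higher. The 4 were Rtp4, Ifitm3, Lgals3bp and Oas1a, which play different roles. The members' median log2 difference was 0.16, against -0.02 over all tested genes, and 21 members were positive and 13 negative (61.8% positive, against 47.8% of all tested genes). At an unadjusted p under 0.05 there were 12 members (35.3%), against 20% of all tested genes.

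Rtp4 encodes a receptor chaperone that is also known as an interferon-induced inhibitor of flavivirus replication (ENSMUSG00000033355, GRCm38 chromosome 16, 23520291 to 23614222). It stood at 52.16, 63.06, 52.75, 56.18 and 68.27 FPKM in aged controls 1 to 5, against 22.34, 30.52, 31.05, 34.53 and 26.69 FPKM in young controls 1 to 5. Every aged control lay above every young control. The log2 difference was 0.99 (SE 0.17, limma adjusted p = 0.00139), and Rtp4 passed whichever library was left out. Rtp4 overlaps Gm45338 on its strand and Masp1 on the other strand, and the sources used here do not say whether counting used strand.

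Ifitm3 (ENSMUSG00000025492, GRCm38 chromosome 7, 141009586 to 141010770) stood at 1847, 1938, 1881, 1748 and 1873 FPKM in aged controls, against 952, 1390, 1124, 1223 and 904 FPKM in young controls. The groups did not overlap, and the aged controls lay close together. The log2 difference was 0.75 (SE 0.21, limma adjusted p = 0.0485), and the call was lost in 11 of 15 omissions of a library. Its neighbour Ifitm1 stood at 1096, 1014, 1105, 1197 and 692 FPKM in aged controls, against 596, 905, 617, 760 and 533 FPKM in young controls. Here the groups overlapped through aged control 5, and the log2 difference was 0.58 (limma adjusted p = 0.215, not called).

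Lgals3bp (ENSMUSG00000033880, GRCm38 chromosome 11, 118392751 to 118402092) stood at 302, 296, 292, 228 and 237 FPKM in aged controls, against 171, 201, 183, 187 and 185 FPKM in young controls. The groups did not overlap, and the 3 highest aged controls were the males. Aged controls exceeded young controls by a log2 difference of 0.54 (SE 0.13, limma adjusted p = 0.0179), a call lost in 5 of 15 omissions of a library.

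Oas1a encodes a 2′-5′-oligoadenylate synthetase, an enzyme that senses double-stranded RNA and activates RNase L (ENSMUSG00000052776, GRCm38 chromosome 5, 120896256 to 120907521). It stood at 36.83, 40.16, 36.54, 32.57 and 42.25 FPKM in aged controls, against 21.31, 30.52, 30.27, 28.19 and 26.08 FPKM in young controls. The aged controls again lay above all young controls. Its log2 difference was 0.46 (SE 0.12, limma adjusted p = 0.0331), and the call was lost in 6 of 15 omissions. Oas1a has close paralogs, and the sources used here do not say how shared reads were counted.

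Isg15, which encodes a ubiquitin-like protein, Bst2, which encodes the virus tether tetherin, and the GTPase gene Igtp also showed no overlap between aged and young controls, but did not pass the test. With the 4 called genes this makes 7 members without overlap on the higher side, against 4.57% of all tested genes. Isg15 averaged 21.2 ± 3.02 FPKM in aged controls and 14.2 ± 2.77 FPKM in young controls (SD, n = 5 each; limma adjusted p = 0.1). Bst2 averaged 97.2 ± 6.60 FPKM in aged controls and 68.0 ± 10.5 FPKM in young controls (SD, n = 5 each; limma adjusted p = 0.101).

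The count of 4 depended on single libraries. It was 1 without aged control 1, 2 or 3 or young control 1, 2 without young control 3, 4 or 5, and 7 without labelled knockout library 5, which enters only through the shared estimate of spread. Of all tested genes, 2.74% to 3.16% were called in the fits with 1 or 2 members, and 6.36% in the fit with 7. Without labelled knockout libraries 2 and 5 together 9 members were called, against 9.08% of all tested genes. When columns were grouped by the library names in the sample descriptions, 0 members and 0 other genes were called, 26 of 34 members changed sign and the median became -0.18, against 0.16 by title. That grouping makes the young group all male and the labelled knockout group all female, by the sex in the library names, so its differences are mixed with sex.

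**Figure D2:**
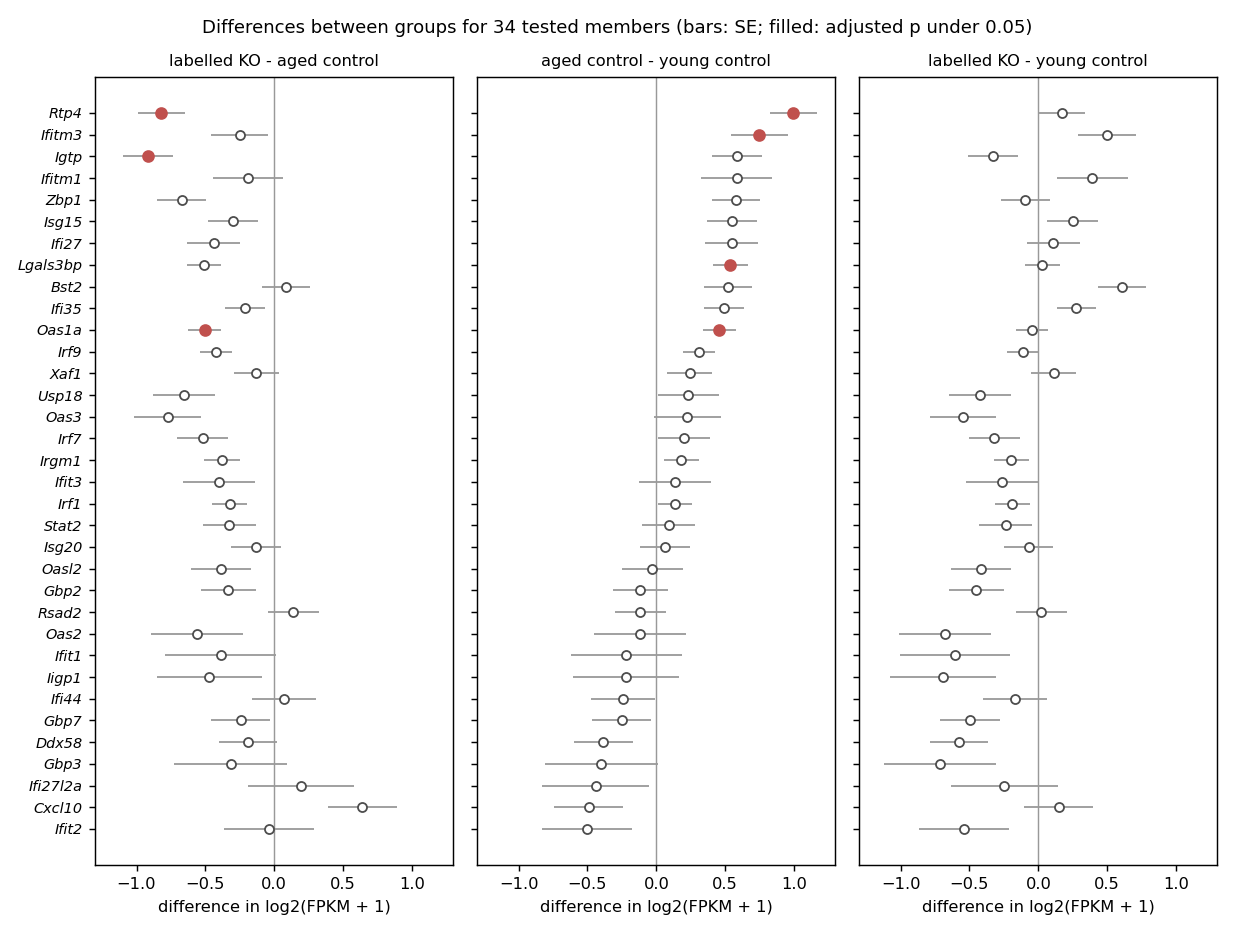
Difference in log2(FPKM + 1) for each of 34 tested members in the 3 comparisons of groups (points, with standard errors as bars; filled points passed limma at an adjusted p under 0.05). In the left panel 29 of 34 points lie below 0, and in the middle panel the called points Rtp4, Ifitm3, Lgals3bp and Oas1a lie above 0.

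Labelled knockout libraries were then compared with aged controls, the comparison that the study's design turns on. Here 3 of 34 members fell and none rose: Igtp, Rtp4 and Oas1a. That is 8.82% of members, against 1.55% of all tested genes called in either direction and 1.19% called lower. The shift was broad but small for most members. In all, 29 of 34 members were negative and 5 positive (14.7% positive, against 45.4% of all tested genes), with a median log2 difference of -0.33, against -0.03 over all tested genes. The 12 HSC markers leaned the same way, with 10 negative and 2 positive (16.7% positive) and a median of -0.24. At an unadjusted p under 0.05 there were 13 members (38.2%), against 12.9% of all tested genes. The aged controls enter this comparison and the one with age, so Rtp4 and Oas1a, which passed in both with opposite signs, did so against the same 5 libraries.

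Igtp encodes Irgm3, an interferon gamma-induced GTPase that acts against intracellular pathogens (ENSMUSG00000078853, GRCm38 chromosome 11, 58199556 to 58207591). It stood at 38.82, 28.58, 53.40, 43.84 and 46.67 FPKM in labelled knockout libraries 1 to 5, against 76.26, 59.42, 84.29, 64.27 and 125 FPKM in aged controls 1 to 5. Every labelled knockout library lay below every aged control. The log2 difference was -0.92 (SE 0.18, limma adjusted p = 0.0116), and it passed whichever library was left out. Young controls stood at 54.98, 53.55, 52.94, 50.76 and 49.29 FPKM, close together, below every aged control and overlapping with labelled knockout library 3. Igtp overlaps Irgm2 on the same strand, so reads of these related GTPase genes may be shared.

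Rtp4 stood at 24.53, 24.20, 45.15, 33.21 and 40.31 FPKM in labelled knockout libraries, all below the lowest aged control at 52.16 FPKM. The log2 difference was -0.82 (SE 0.17, limma adjusted p = 0.0164). The call was lost without aged control 2 (limma adjusted p = 0.0543) or labelled knockout library 2 (0.0513). Oas1a stood at 25.73, 29.05, 24.98, 25.10 and 26.21 FPKM in labelled knockout libraries, all below the lowest aged control at 32.57 FPKM. Its log2 difference was -0.50 (SE 0.12, limma adjusted p = 0.0379), and the call was lost in 11 of 15 omissions of a library. Without labelled knockout libraries 2 and 5 together, all 3 still passed, with log2 differences of -0.80 for Igtp, -0.79 for Rtp4 and -0.55 for Oas1a.

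Irf9, the DNA-binding partner of Stat2, and Zbp1, a sensor of Z-form nucleic acid that can trigger cell death, were also lower in every labelled knockout library than in any aged control. With the 3 called genes this makes 5 members without overlap on the lower side, against 1.6% of all tested genes. Zbp1 stood at 3.76, 4.22, 5.95, 5.44 and 5.0 FPKM in labelled knockout libraries, against 7.14, 6.33, 7.54, 8.93 and 12.60 FPKM in aged controls and 5.24, 6.38, 5.87, 4.77 and 4.06 FPKM in young controls. Its log2 difference from aged controls was -0.67 (SE 0.18, limma adjusted p = 0.0657, not called). Irf9 averaged 29.7 ± 3.60 FPKM in labelled knockout libraries and 40.0 ± 3.14 FPKM in aged controls (SD, n = 5 each; limma adjusted p = 0.0857).

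Oas3 and Usp18 had larger differences than Oas1a and did not pass the test. Oas3, another oligoadenylate synthetase, stood at 4.14, 2.44, 7.77, 7.62 and 2.34 FPKM in labelled knockout libraries, against 7.85, 8.27, 9.45, 6.46 and 9.18 FPKM in aged controls (log2 difference -0.77, limma adjusted p = 0.136). Labelled knockout libraries 3 and 4 lay within the range of aged controls, and the other 3 lay below it. Usp18, the enzyme that removes Isg15 from proteins and dampens type I interferon signalling, stood at 4.40, 5.10, 10.06, 6.82 and 6.02 FPKM in labelled knockout libraries, against 7.65, 8.76, 10.18, 10.18 and 17.42 FPKM in aged controls (log2 difference -0.66, limma adjusted p = 0.184). Lgals3bp stood at 229, 171, 196, 181 and 171 FPKM in labelled knockout libraries, of which library 1 reached above aged control 4 (log2 difference -0.51, limma adjusted p = 0.0506).

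Ifitm3 and Ifitm1, the members with the highest levels, were not called in this comparison. Ifitm3 stood at 1351, 1706, 1358, 1159 and 2546 FPKM in labelled knockout libraries, a group mean of 1624 ± 552 FPKM against 1857 ± 69.7 FPKM in aged controls (SD, n = 5 each; log2 difference -0.25). Library 5 was above every aged control and the other 4 were below all of them. Ifitm1 stood at 936, 1228, 590, 545 and 1420 FPKM in labelled knockout libraries (log2 difference from aged controls -0.19). Libraries 2 and 5, the highest for Ifitm1, are those in which short genes held more of the summed FPKM, and Ifitm3 and Ifitm1 have 678 and 1094 nucleotides of exons. The part of this length shift in their levels was not tested. Without both libraries the log2 differences were -0.53 for Ifitm3 (limma adjusted p = 0.159) and -0.58 for Ifitm1 (limma adjusted p = 0.299), against a members' median of -0.32.

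The count of 3 was 1 without aged control 2, against 0.899% of all tested genes in that fit. It was 6 with sex as a covariate, when Irf9, Lgals3bp and Zbp1 also fell, against 2.11% of all tested genes called in that fit. Grouping by the descriptions gave 0 calls and 28 of 34 members with the opposite sign, with a median of 0.25. After quantile normalization 28 members were negative, and Ifit2 alone changed sign.

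**Figure D3:**
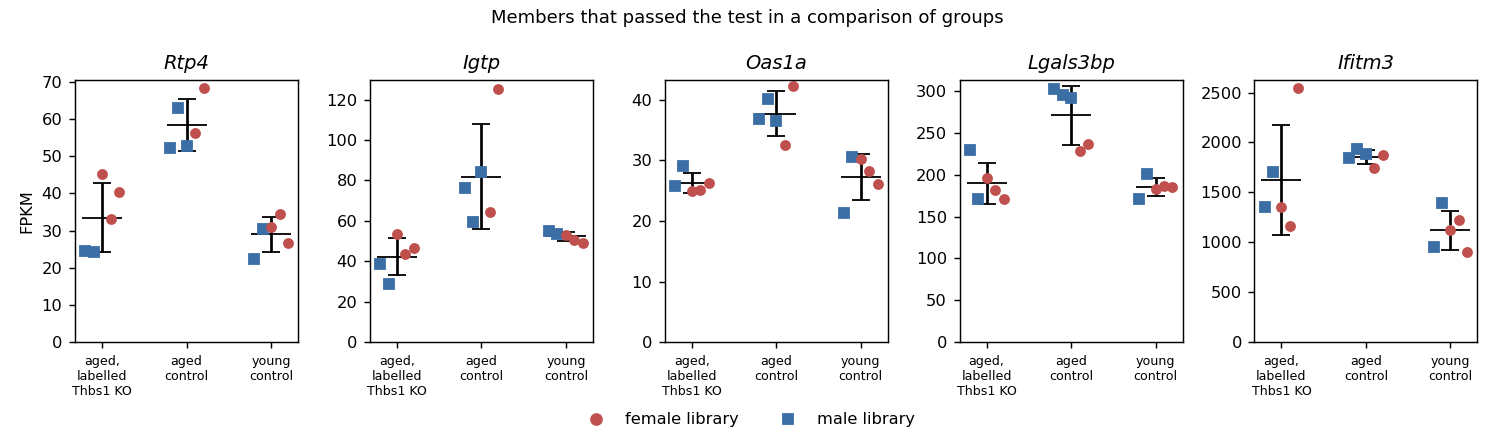
FPKM in each library for the 5 members called in a comparison of groups (circles female, squares male; horizontal lines and bars are mean and SD, n = 5 per group). Rtp4, Igtp and Oas1a in labelled knockout libraries all lie below the aged controls, and for Ifitm3 labelled knockout library 5 stands far above the other 4.

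Labelled knockout libraries were last set against young controls, with which the other comparisons share samples. None of the 34 members passed the limma test or a limma-voom fit on recovered reads, against 1.63% of all tested genes in the limma fit. The smallest adjusted p was 0.0856, for Bst2. At an unadjusted p under 0.05 there were 6 members (17.6%), against 21.2% of all tested genes. They were Bst2 and Ifitm3 on the higher side and Ddx58, Gbp7, Oas3 and Gbp2 on the lower side. The median log2 difference was -0.19, against -0.06 over all tested genes, and 11 of 34 were positive (32.4%, against 42.7%). One omission, that of labelled knockout library 4, gave 1 call, against 5.96% of all tested genes in that fit.

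The 3 largest differences from young controls were those of Gbp3, Iigp1 and Oas2, none of them called. Gbp3, a guanylate-binding protein gene, stood at 4.13, 0.24, 6.47, 6.17 and 5.33 FPKM in labelled knockout libraries, against 8.87, 4.69, 8.58, 5.79 and 6.01 FPKM in young controls (log2 difference -0.71). Iigp1, which encodes a GTPase that attacks the vacuoles of intracellular parasites, stood at 1.67, 0.36, 4.52, 3.91 and 5.64 FPKM in labelled knockout libraries, against 10.35, 3.23, 5.22, 4.27 and 3.59 FPKM in young controls (log2 difference -0.69). Oas2 stood at 0.32, 0.61, 1.77, 2.18 and 0.37 FPKM in labelled knockout libraries, against 1.48, 1.84, 2.22, 2.14 and 2.77 FPKM in young controls (log2 difference -0.68). For each of these genes 2 or 3 of the 5 labelled knockout libraries lay below every young control, and the others lay within their range. Gbp3 in labelled knockout library 2 rested on 15 recovered reads. Without labelled knockout libraries 2 and 5 together the log2 differences were -0.23 for Gbp3, -0.50 for Iigp1 and -0.43 for Oas2.

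The 4 transcription factor genes (Irf1, Irf7, Irf9 and Stat2) had log2 differences of -0.52 to -0.32 in labelled knockout libraries against aged controls, and 0.09 to 0.31 in aged against young controls, with no call in either. The 6 GTPase genes (Gbp2, Gbp3, Gbp7, Iigp1, Igtp and Irgm1) were all negative in labelled knockout libraries against aged controls (-0.92 to -0.24), with 1 call. In aged against young controls 2 of these 6 were positive, Igtp and Irgm1. The 4 Oas genes were all negative in labelled knockout libraries against aged controls (-0.77 to -0.39), with 1 call, and 2 of 4 were positive with age.

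The entry and release blockers Ifitm1, Ifitm3 and Bst2 were all positive in aged against young controls (0.52 to 0.75), with 1 call. The 3 Ifit genes, whose proteins bind foreign RNA, ranged from -0.50 to 0.14 in aged against young controls, with no call. Cxcl10, which encodes a chemokine that draws T cells, had the largest positive difference of any member in labelled knockout libraries against aged controls. It stood at 1.02, 1.19, 3.11, 1.87 and 1.56 FPKM in labelled knockout libraries, against 0.91, 0.71, 0.21, 0.39 and 1.66 FPKM in aged controls, which overlapped (log2 difference 0.64, limma adjusted p = 0.271). Near-identical relatives within the Ifit, Oas and Gbp families may share reads.

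The members' mean level varied between libraries of 1 group. The mean log2(FPKM + 1) over the 36 members was 3.43, 3.41, 3.98, 3.69 and 3.80 in labelled knockout libraries 1 to 5. In aged controls it was 3.81, 3.82, 3.80, 4.05 and 4.32, and in young controls 3.87, 3.83, 3.91, 3.91 and 3.68. Aged control 5 was thus the highest of all 15 libraries, and labelled knockout libraries 1 and 2, both male, were the lowest. The erythroid markers Car1 and Klf1 were highest in these same 3 libraries. Car1, which encodes a carbonic anhydrase of red cells, stood at 110.9, 172.3, 25.19, 1.23 and 33.53 FPKM in labelled knockout libraries 1 to 5, against 3.11, 6.52, 14.94, 10.75 and 298.7 FPKM in aged controls 1 to 5 and 37.44 to 86.27 FPKM in young controls. Klf1, an erythroid transcription factor gene, stood at 37.88 FPKM in aged control 5, against 5.03 to 6.54 FPKM in the other aged controls, and at 21.27 and 28.51 FPKM in labelled knockout libraries 1 and 2. All 8 erythroid markers were in the table and 6 reached a mean of 1 FPKM and were tested. Their summed level was 44.4 to 243.7 FPKM in labelled knockout libraries, 61.7 to 368.5 FPKM in aged controls and 80.9 to 171.9 FPKM in young controls. Of the 6, 1 was called in a comparison of groups, Hbb-bt, which was lower in labelled knockout libraries than in young controls (-1.14, limma adjusted p = 0.0424). The 6 did not move as a set. In labelled knockout libraries against aged controls 2 were positive and 4 negative (median -0.43). With age 3 were positive and 3 negative (median 0.04). The part of these markers in the members' levels was not tested. Aged control 5 had the highest value of its group for 24 of 36 members (66.7%), against 27% of all tested genes. Labelled knockout library 3 had the highest value of its group for 19 of 36 (52.8%), against 11.6% of all tested genes. Without aged control 5, 28 of 34 members were still negative in labelled knockout libraries against aged controls, with a median of -0.24, and the median in aged against young controls was 0.07.

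Sex was read from the library names, which gave 8 female and 7 male libraries. Males carried the lower replicate numbers in every group, so sex cannot be told apart from a batch that ran along the numbers. With group in the model, 5 of 34 members were higher in females and none lower: Ifit1, Oas2, Oasl2, Gbp2 and Gbp3. That is 14.7% of members, against 12.9% of all tested genes called in either direction and 9.67% called higher, a share near the background. Among the members 29 of 34 were positive, with a median of 0.23, against 52.1% of all tested genes and a median of 0.02. At an unadjusted p under 0.05 there were 9 members (26.5%), against 30.4% of all tested genes. None of these 5 was called in a comparison of groups. With the replicate number as a block, 0 members and 1 of 11345 genes were called between sexes. Replicates 1 and 2 were male and 4 and 5 female in every group, so only replicate 3 held both sexes. The block thus takes up most of the sex difference, and this count cannot decide whether the sexes differ. Library measures moved with sex as well. Genes with at most 1200 nucleotides of exons held 27.1% to 47.4% of the summed FPKM in females (median 30.6%), against 31.8% to 54.9% in males (median 38.9%). Mitochondrial genes held 0.241% to 0.73% of recovered reads in females, against 0.395% to 1.64% in males. The 5 called members have from 2516 (Gbp2) to 6374 (Oasl2) nucleotides of exons, and the part of the length shift in their differences was not tested.

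Ifit1 (ENSMUSG00000034459, GRCm38 chromosome 19, 34640871 to 34650009) encodes a protein that binds viral RNA caps. It ranged from 1.62 to 5.82 FPKM with a median of 3.35 in females, against 0.02 to 3.63 FPKM with a median of 1.21 in males. The sexes overlapped through the young controls, where males and females had like levels, while in each aged group every female lay above every male. Females exceeded males by a log2 difference of 1.0 (SE 0.24, limma adjusted p = 0.0169). Labelled knockout library 1 rested on 1 recovered read of Ifit1, and the other libraries on 31 to 354.

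Oas2 (ENSMUSG00000032690, GRCm38 chromosome 5, 120730333 to 120749853) had a median of 2.20 FPKM in females (0.37 to 5.61) and 0.83 FPKM in males (0.32 to 1.84), a log2 difference of 0.82 (SE 0.20, limma adjusted p = 0.0187). Oasl2, an Oas-like gene with a ubiquitin-like tail (ENSMUSG00000029561, GRCm38 chromosome 5, 114896936 to 114912234), had a median of 18.4 FPKM in females (11.75 to 26.68) and 14.0 FPKM in males (8.74 to 16.88). Its log2 difference was 0.54 (SE 0.13, limma adjusted p = 0.0169). The ranges overlapped for both genes, and aged control 5, a female, was the highest library for both.

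Gbp2 (ENSMUSG00000028270, GRCm38 chromosome 3, 142620602 to 142638008) had a median of 24.2 FPKM in females (17.70 to 31.77) and 19.3 FPKM in males (13.10 to 26.36), a log2 difference of 0.48 (SE 0.12, limma adjusted p = 0.0194). Gbp3 (ENSMUSG00000028268, GRCm38 chromosome 3, 142560026 to 142573209) had a median of 6.32 FPKM in females (5.33 to 8.63) and 4.13 FPKM in males (0.24 to 8.87), a log2 difference of 0.89 (SE 0.27, limma adjusted p = 0.0418). Both ranges overlapped. The highest male was young control 1 for both genes. The number of members called between sexes was 10 without young control 1 (against 25.3% of all tested genes), 8 without labelled knockout library 5 (24.6%), 3 without labelled knockout library 2 (5.21%), 2 without aged control 4 (4.93%) and 1 without aged control 5 (4.66%).

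**Figure D4:**
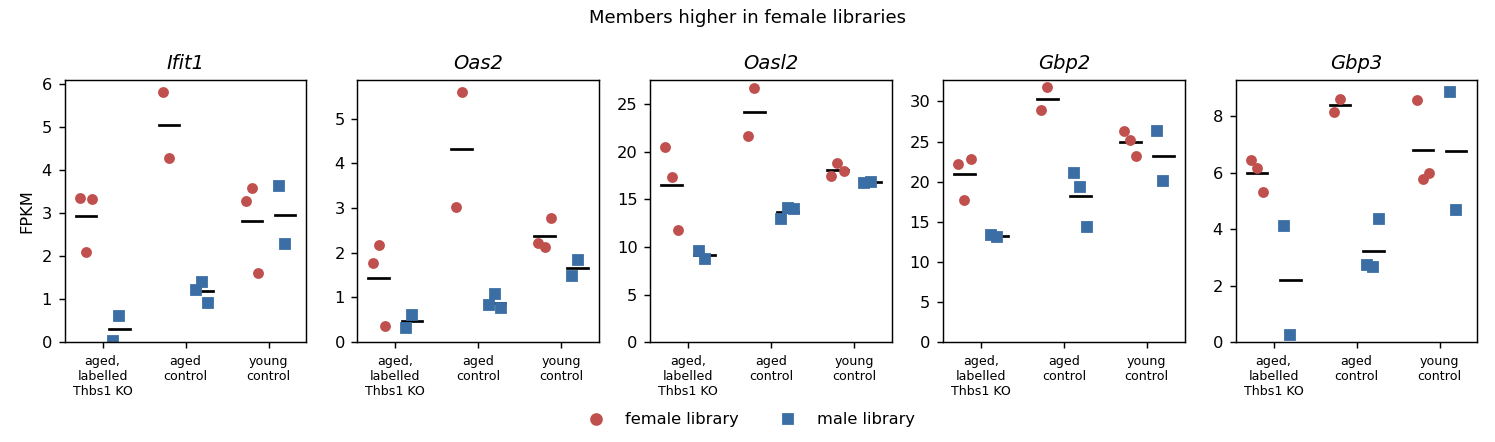
FPKM of the 5 members higher in female libraries, by group and sex (circles female, squares male; lines are means; 2 or 3 libraries per group and sex). In aged controls and labelled knockout libraries the females lie above the males for Ifit1, Oasl2, Gbp2 and Gbp3, and in young controls the sexes overlap or lie close for these genes.

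Whether the age difference itself differed between the sexes was tested with an interaction term. No member and no other gene passed it in limma or in limma-voom, with 8 of 34 members (23.5%) at an unadjusted p under 0.05, against 8.8% of all tested genes. Of all 34, 25 were positive (73.5%, against 47.1% of all tested genes), among them these 8: Ifit1 (1.54, limma adjusted p = 0.465), Iigp1 (1.31), Oas2 (1.11), Gbp7 (1.02), Ifi44 (0.92), Zbp1 (0.75), Oasl2 (0.67) and Gbp2 (0.61). Ifit1 averaged 5.06 FPKM in aged females and 2.83 FPKM in young females, against 1.18 FPKM in aged males and 2.96 FPKM in young males. Iigp1 averaged 6.63 FPKM in aged females and 4.36 FPKM in young females, against 2.93 FPKM in aged males and 6.79 FPKM in young males. These cells hold 2 or 3 libraries each, and the aged females were aged controls 4 and 5. Without aged control 5, 21 of 34 interaction differences were positive and 13 negative, and 6 members changed sign. The median was then 0.16, against 0.40 with all libraries, so the lean rested in part on this library. Within females 31 of 34 members were positive in aged against young controls, and within males 19 of 34 were.

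Within females 2 members were called with age, Rtp4 and Zbp1, against 0.961% of all tested genes, and within males 3, Rtp4, Lgals3bp and Ifi35, against 7.75%. Rtp4 was thus the one member called with age within each sex, with log2 differences of 0.99 in females and 1.07 in males (limma adjusted p = 0.0143 and 0.00422). In labelled knockout libraries against aged controls, Rtp4 was called within males at -1.16 (limma adjusted p = 0.0058), as was Igtp at -1.10 (0.0317), against 1.42% of all tested genes. No member was called within females, against 0.264% of all tested genes. The interaction of sex with the knockout label was called for no member in limma or limma-voom and reached an unadjusted p under 0.05 for none, against 3.32% of all tested genes, so the label's difference was not shown to differ between sexes. Against young controls, males of the labelled knockout group had lower Iigp1 (-1.86, limma adjusted p = 0.0263) and Ifit1 (-1.61, 0.0213), against 3.44% of all tested genes called in that contrast. Iigp1 averaged 1.02 FPKM in labelled knockout males and 6.79 FPKM in young males, with 2 libraries in each.

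The genes around the members were described from lists of ligands, receptors, sensors and further interferon-induced genes. Of 20 interferon genes, the table held Ifnab, at 0 to 0.27 FPKM in labelled knockout libraries, 0 to 0.63 FPKM in aged controls and 0 to 0.41 FPKM in young controls, and the other 19 were not analysed here. The receptor genes Ifnar1, Ifnar2, Ifngr1 and Ifngr2 were present in every library. Ifngr1 averaged 39.9 ± 6.62 FPKM in labelled knockout libraries, 47.6 ± 5.52 FPKM in aged controls and 51.5 ± 4.95 FPKM in young controls (SD, n = 5 each). No tested receptor gene passed in a comparison of groups. Ifnlr1, which encodes a receptor subunit for interferon lambda, had a mean under 1 FPKM and was not tested. It stood at 0.07 to 0.49 FPKM in labelled knockout libraries, 0.67 to 1.25 FPKM in aged controls and 0.02 to 0.16 FPKM in young controls. Every aged control thus lay above all other libraries, at levels near the floor. The share of untested genes that separate likewise is not given here.

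Among 19 tested receptor and signalling genes, 2 rose and 1 fell with age, against 4.42% of all tested genes called in either direction. Both that rose encode inhibitors of cytokine signalling. The listed inhibitor genes Ptpn2 (-0.43), Ptpn6 (-0.20), Ptpn11 (-0.19) and Pias1 (-0.17) were negative with age and not called. Socs3 stood at 25.20, 17.83, 18.18, 20.22 and 11.34 FPKM in aged controls, against 2.16, 2.72, 2.04, 3.13 and 1.96 FPKM in young controls. All aged controls lay far above all young controls, with a log2 difference of 2.49 (SE 0.18, limma adjusted p = 1.6e-07). Socs1 averaged 23.0 ± 5.23 FPKM in aged controls and 12.2 ± 3.4 FPKM in young controls (SD, n = 5 each; log2 difference 0.87, limma adjusted p = 0.0175). The transcription factor gene Irf5 fell, at 8.26 ± 1.72 FPKM in aged controls and 12.6 ± 1.40 FPKM in young controls (SD, n = 5 each; log2 difference -0.57, limma adjusted p = 0.0412). Called or not, 4 of the 19 were positive with age and 15 negative, with a median of -0.16 (21.1% positive, against 47.8% of all tested genes).

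Socs3 was lower in labelled knockout libraries than in aged controls, at 4.63, 3.89, 4.62, 5.86 and 4.47 FPKM (log2 difference -1.75, SE 0.18, limma adjusted p = 1.8e-05). It was the only one of the 19 called there, against 1.55% of all tested genes. Socs3 stayed above young controls, whose highest library was at 3.13 FPKM (log2 difference 0.75, limma adjusted p = 0.0413). Between sexes, Jak1 (0.60) and the phosphatase gene Ptpn2 (0.53) were higher in females (limma adjusted p = 0.0249 and 0.0142). Of all tested genes, 9.67% were called higher in females. Jak1 averaged 40.6 ± 7.16 FPKM in 8 female libraries and 27.5 ± 11.7 FPKM in 7 male libraries (SD).

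Of 14 tested nucleic acid sensing genes, only Myd88, an adaptor of Toll-like receptors, passed with age, against 4.42% of all tested genes. Myd88 averaged 49.6 ± 3.74 FPKM in aged controls and 35.9 ± 2.26 FPKM in young controls (SD, n = 5 each), a log2 difference of 0.45 (limma adjusted p = 0.0243). Called or not, 4 of the 14 were positive with age and 10 negative (28.6% positive), with a median of -0.095. Against 3.18% of all tested genes called higher, 4 of 48 other tested interferon-induced genes rose with age and none fell. Their differences with age were otherwise spread around 0, with 23 positive and 25 negative (47.9% positive, against 47.8% of all tested genes) and a median log2 difference of -0.0016. Phf11d averaged 4.94 ± 1.77 FPKM in aged controls and 0.988 ± 0.407 FPKM in young controls (SD, n = 5 each; log2 difference 1.56, limma adjusted p = 0.00672). Serping1, which encodes the complement C1 inhibitor, averaged 2.25 ± 1.52 FPKM in aged controls and 0.428 ± 0.122 FPKM in young controls (SD, n = 5 each; log2 difference 1.09, limma adjusted p = 0.0121). Ly6e (0.78) and Uba7, which encodes the enzyme that activates Isg15 (0.72), also rose.

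In labelled knockout libraries against aged controls, 1 of these 48 fell, against 1.19% of all tested genes. It was Serping1, at 0.514 ± 0.433 FPKM in labelled knockout libraries (SD, n = 5), with a log2 difference of -1.05 (limma adjusted p = 0.0327). The 48 had a median of -0.27, against -0.03 over all tested genes. Of them, 35 were negative (27.1% positive, against 45.4% of all tested genes). Against young controls 1 of 48 was called, Phf11b, which fell (-0.59, limma adjusted p = 0.029), against 1.63% of all tested genes called. Between sexes 11 of 48 were higher in females and none lower, against 9.67% of all tested genes called higher. The 4 with the smallest p were Epsti1 (0.52), Phf11d (0.81), Parp9 (0.72) and Tgtp1 (0.58).

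Markers of other cell types were read in the same libraries. Of 10 T and NK cell markers, 7 were in the table and 2 were tested. Their summed level was 29.4 to 61.7 FPKM in labelled knockout libraries, 67.8 to 134.9 FPKM in aged controls and 54.1 to 105.2 FPKM in young controls. Klrb1c, an NK receptor gene, averaged 6.88 ± 4.82 FPKM in labelled knockout libraries, 17.8 ± 4.96 FPKM in aged controls and 2.66 ± 0.746 FPKM in young controls (SD, n = 5 each), a rise in aged against young controls (2.34, limma adjusted p = 8.7e-05) and a fall in labelled knockout libraries against aged controls (-1.38, 0.0207). Over all libraries the summed level came mostly from the other tested marker, which was not called in a comparison of groups. Cd3d, Cd3g, Cd4, Trac and Ncr1 stayed under a mean of 1 FPKM, and Cd3g and Ncr1 had a median of 0. Of 8 plasmacytoid dendritic cell markers, 6 were in the table, and all but Bst2, itself a member, stayed under a mean of 1 FPKM, with Siglech and Ccr9 at a median of 0. Their summed level, mostly Bst2, was 80.9 to 170.4 FPKM in labelled knockout libraries, 87.5 to 104.5 FPKM in aged controls and 58.3 to 81.7 FPKM in young controls.

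Of 9 macrophage markers, 7 stayed under a mean of 1 FPKM, and their summed level was 8.64 to 15.9 FPKM in labelled knockout libraries, 8.92 to 15.02 FPKM in aged controls and 11.6 to 18.1 FPKM in young controls. Ly6a, a marker of HSCs that is also known to respond to interferon, averaged 137 ± 49.0 FPKM in labelled knockout libraries, 284 ± 25.3 FPKM in aged controls and 155 ± 27.3 FPKM in young controls (SD, n = 5 each). Ly6a rose with age (0.88, limma adjusted p = 0.013) and was lower in labelled knockout libraries than in aged controls (-1.12, limma adjusted p = 0.00432). The summed level of all 12 HSC markers was 770.4 to 993.1 FPKM in labelled knockout libraries, 1084 to 1207 FPKM in aged controls and 892 to 956 FPKM in young controls. With age 7 of the 12 were positive and 5 negative, with a median of 0.25. Of the 12, 4 were called higher with age, Ly6a among them, and none lower, against 3.18% of all tested genes called higher. All 6 conventional dendritic cell markers were in the table, 4 stayed under a mean of 1 FPKM, and Itgax had a median of 0. Of the 2 tested, Flt3, which encodes a cytokine receptor of progenitors and dendritic cells, fell with age (-1.65, limma adjusted p = 0.00043). It stood at 2.06 to 2.68 FPKM in aged controls, against 8.57 to 11.02 FPKM in young controls, and at 2.33 to 10.75 FPKM in labelled knockout libraries. The part of these marker levels in the members' differences was not tested.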

How the data were processed

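Bulk RNA sequencing of sorted HSCs was read from the table the authors deposited, which gives FPKM to 2 decimals for 20696 genes in 15 libraries. Library preparation started from 2 ng of RNA and used a SMART-Seq v4 kit, per the labels' protocols. Per the submitters' processing notes, FastQC 0.11.5, STAR and edgeR were used on GRCm38 (mm10). The sources used here do not give their settings or the strand used in counting.

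The table's first header line gives a library name, in which sex is written, and the second gives a sample title. Columns were grouped by title. The sample descriptions point to the same sample for 5 columns and to a sample of another group for 10. All 20696 gene identifiers were found in GENCODE M21, which gave positions and exon lengths on GRCm38.

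Values were analysed as log2(FPKM + 1). On this scale, fold changes of weakly expressed genes come out too small. The test took 11345 genes with a mean of at least 1 FPKM, and 9351 genes fell below it. All 15 libraries entered 1 fit with limma 3.58.1 in R 4.3.3, with an intensity-dependent prior variance and two-sided tests, and calls were made at a Benjamini-Hochberg adjusted p under 0.05 over all tested genes. Sex was tested with group in the model, and the interactions in a fit of 6 cells of group and sex. The script was tested on simulated data. Count tests were not used on FPKM. Depth was recovered from the rounding for genes of up to 250 nucleotides, where at least 99.49% of values were whole reads within a tolerance of 0.1, as were at least 97.56% of values in genes up to 500 nucleotides that played no part in finding the step. The smallest step was taken as 1 read. A limma-voom fit on these reads was added after seeing the data, and it called 4, 3, 0 and 4 members in the comparisons of aged with young controls, labelled knockout libraries with aged controls, labelled knockout libraries with young controls, and females with males. Of all tested genes it called 4.32%, 1.31%, 1.44% and 11.8%, in the same order.

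Other alternatives were a pseudocount of 0.1, no filter on low values, quantile normalization, sex as a covariate or alone, contrasts within each sex, a replicate block, columns grouped by the descriptions, and omission of each library or of labelled knockout libraries 2 and 5 together. Values in every library are given for members called in a comparison of groups, for the 3 with the highest mean, and for up to 3 uncalled members with the largest difference in each comparison. From the other lists, up to 4 called genes with the smallest p are named for each comparison. Irf9, Isg15, Bst2 and Cxcl10, and the genes named for sex or interaction, were chosen after their values were seen. The members and the lists were chosen with earlier results of these data known. Some single genes are not reported here.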

Additional observations from a re-analysis of the deposited data

Results flagged for a closer look

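Of 108 gene and group combinations checked, 4 held a library whose gap to its nearest neighbour was over 0.71 of the group's range, and chance gives about 1 in 20. Gbp3 stood at 0.24 FPKM in labelled knockout library 2, against 4.13 to 6.47 FPKM in the other 4, and rested on 15 recovered reads. Ifih1 stood at 0.92 FPKM in labelled knockout library 5, against 0.49 to 0.60 FPKM in the other 4. Gbp7 stood at 3.62 FPKM in young control 1, against 1.31 to 1.42 FPKM in the other 4. Ifit3 stood at 3.67 FPKM in young control 4, against 1.62 to 1.93 FPKM in the other 4.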

How the results depend on the processing

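Columns grouped by the library names in the descriptions gave 0 calls in aged against young controls and 0 in labelled knockout libraries against aged controls, so both results rest on the titles. The letters in the library names follow the titles. Grouping by the descriptions mixes these letters, and makes the young group all male and the labelled knockout group all female, so its differences are mixed with sex. Under that grouping the log2 differences in aged against young controls turned to -0.24 for Ifitm1, -0.33 for Ifitm3, -0.58 for Igtp, -0.37 for Lgals3bp, -0.21 for Oas1a, -0.55 for Rtp4 and -0.45 for Zbp1. In labelled knockout libraries against aged controls they turned to 0.079 for Ifitm1, 0.44 for Ifitm3, 0.51 for Igtp, 0.0812 for Lgals3bp, 0.0864 for Oas1a, 0.19 for Oas3, 0.73 for Rtp4, 0.38 for Usp18 and 0.57 for Zbp1. Against young controls they turned to 0.57 for Gbp3, -0.16 for Ifitm1, 0.36 for Iigp1, -0.29 for Lgals3bp and 0.56 for Oas2.

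Replicate numbers did not pair the samples, with correlations of deviations from -0.455 to 0.527 between same-numbered libraries, and 3 of 15 pairs had their own number as the best match. With a replicate block, 3 members were called in aged against young controls (4.4% of all tested genes), 2 in labelled knockout libraries against aged controls (1.34%), 0 against young controls (1.39%), 0 between sexes (0.00881%) and 0 in either interaction. The replicate number nearly fixes sex, so the block's count between sexes cannot decide whether they differ.

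Within females 2 members were called with age (0.961% of all tested genes) and 0 with the label against aged controls (0.264%), and within males 2 against young controls (3.44%). Quantile normalization gave 1 call against young controls (2.35% of all tested genes), sex as a covariate 6 with the label (2.11%), and sex alone 1 between sexes (8%). Without labelled knockout libraries 2 and 5 together 9 members were called with age (9.08% of all tested genes). Differences from young controls reversed after quantile normalization for Ifitm1 (-0.13), Ifitm3 (-0.0749) and Lgals3bp (-0.17), within males for Oas1a (0.10) and Rtp4 (-0.10), and within females for Iigp1 (0.0861) and Lgals3bp (-0.0175). Within males Ifitm1 turned to 0.0017 in labelled knockout libraries against aged controls. The cause was not tested.

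Omission of single libraries gave 1 to 7 calls with age, 1 to 4 with the label against aged controls, 0 to 1 against young controls, 1 to 10 between sexes, and 0 to 0 in both interactions. In the comparisons before the interactions, 2.74% to 8.31%, 0.837% to 2.02%, 0.864% to 5.96% and 4.66% to 25.3% of all tested genes were called, in the same order. Lgals3bp in labelled knockout libraries against young controls ranged from -0.043 (without labelled knockout library 1) to 0.062 (without labelled knockout library 2), and stood at -0.0015 without young control 1. Under the other settings, 217 of 285 values of single members kept their direction and side of the threshold, 29 reversed, 29 lost a call and 10 gained one. Under omissions, 392 of 450 kept both, 2 reversed, 51 lost a call and 5 gained one. Members under about 2 FPKM rest on few reads and limit what can be shown.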
